A study of Bos taurus with 12 samples.

Results

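The iron and heme handling genes described here are TF, TFRC, STEAP3, SLC11A2, CD163, HMOX1, FTH1, FTL and SLC40A1. They were taken from the mRNA table by gene name, and they were chosen by their own FPKM over the 4 days. FPKM is a level per length: mapped fragments of a transcript, per kilobase of its length, scaled to the mapped total of the library. Since the same values chose them, their levels and differences between days are a description and carry no p-value. The 9 genes fill 9 of the 33714 rows of the table. For 7 of them the row is their own, and the rows of TFRC and SLC11A2 each name 2 genes. The row of TFRC also names ZDHHC19, and that of SLC11A2 also names LOC512464. All 9 symbols are in RefSeq's bovine gene table of the assembly ARS-UCD2.0, where TFRC and ZDHHC19 are direct neighbours and SLC11A2 and LOC512464 have 2 genes between them. What each gene gives to a shared row cannot be told apart.

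The study followed bovine intramuscular preadipocytes, cells cultured from the longissimus dorsi of newborn Qinchuan cattle, through adipogenic differentiation. The labels name 4 groups by day, 0 d, 3 d, 6 d and 9 d, with 3 libraries in each and 12 in all. All cells grew in DMEM-F12 with 15% serum, and differentiation was started near confluence with DEX (a glucocorticoid), 0.5 mM IBMX (an inhibitor of phosphodiesterases) and insulin, which is 5 µg/mL in the labels and 2 µM in the paper. The 0 d cells are those of day 0 of differentiation, and whether they had met this medium is not given in the sources used here. After 48 h the medium held insulin without DEX and IBMX, so the 3 d, 6 d and 9 d cells were all collected after that change. The paper calls the 3 libraries of a day biological replicates, and the number of animals behind them is not given in the sources used here, so p-values measure the spread between these libraries. mRNAs, circular RNAs and miRNAs were read in libraries of the same 12 names.

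Cells take up iron bound to the carrier protein transferrin through the transferrin receptor, reduce it in endosomes and pass it to the cytosol. Iron that is not used is stored in ferritin, a shell of heavy and light chains, or leaves through ferroportin, and iron regulatory proteins set the translation or stability of several of these mRNAs. Heme from hemoglobin is taken up through the receptor CD163, best known from macrophages, and is opened by heme oxygenase, which frees its iron. Fat cells are known to need iron for mitochondria as they differentiate and to respond to iron load with altered hormone release.

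**Figure D1:**
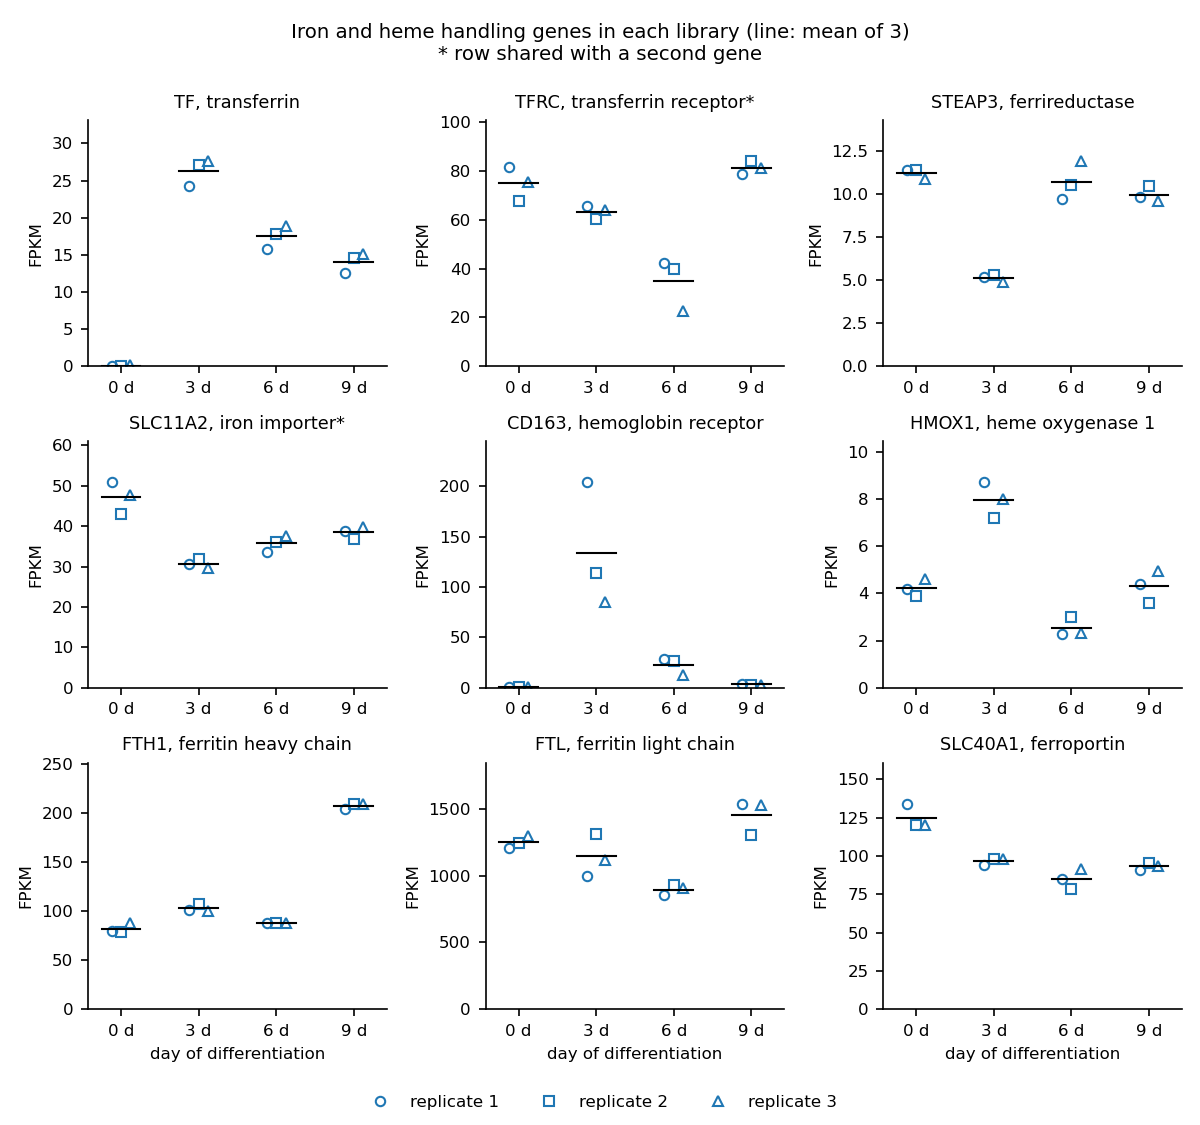
FPKM of each of the 9 genes (vertical axis, linear, from 0) in each of the 12 libraries by day of differentiation. Symbols are replicates 1 to 3 and lines are the means of 3 libraries; an asterisk marks a row shared with a second gene. TF and CD163 stood near 0 at 0 d, and FTH1 was highest at 9 d.

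Among the genes of iron uptake, transferrin itself went from almost no signal to a clear one. TF, the iron carrier of plasma, was listed at 0, 0 and 0.15 FPKM at 0 d, at 24.3, 27.1 and 27.6 at 3 d, at 15.8, 17.8 and 18.9 at 6 d, and at 12.6, 14.6 and 15.1 at 9 d. The 3 d libraries were the highest, every 6 d library lay above every 9 d library, and no days overlapped. Because TF was listed at 0 in replicates 1 and 2 of 0 d, no ratio of means is given against that day. The log2 difference of day means from 0 d depends on the value added to the FPKM. On log2(FPKM + 0.1) it was 7.60 at 3 d against 0 d. It was 4.70 when 1 was added in place of 0.1, and 10.03 with 0.01. Between later days the log2 difference was -0.59 for 6 d against 3 d and -0.31 for 9 d against 6 d.

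TFRC, the transferrin receptor, whose row also names ZDHHC19, had 81.6, 67.4 and 75.3 FPKM at 0 d, 65.7, 60.2 and 64.0 at 3 d, 42.2, 39.7 and 22.8 at 6 d, with 78.6, 83.9 and 80.9 at 9 d. The 6 d libraries were the lowest, the 3 d libraries lay between, and 0 d and 9 d overlapped. Its mean at 6 d was 34.9 ± 10.6 (SD, n = 3), against 74.8 ± 7.09 at 0 d, a log2 difference of -1.14. Replicate 3 of 6 d was the low library, and without it the log2 difference was -0.86.

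STEAP3 reduces iron in endosomes so that it can leave them. Its levels were 11.4, 11.4 and 10.9 FPKM at 0 d, 5.21, 5.30 and 4.90 at 3 d, 9.71, 10.5 and 11.9 at 6 d, with 9.85, 10.5 and 9.62 at 9 d. The 3 d libraries stood apart below all others, and 6 d overlapped with both 0 d and 9 d. The log2 difference was -1.12 at 3 d and -0.07 at 6 d against 0 d. At 9 d it was -0.17, and it turned to 0.029 when libraries were rescaled by their median ratio.

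SLC11A2, also called DMT1, carries iron out of endosomes, and its row also names LOC512464. It had 50.8, 43.0 and 47.6 FPKM at 0 d, 30.5, 31.9 and 29.6 at 3 d, 33.6, 36.1 and 37.6 at 6 d, with 38.8, 36.8 and 39.7 at 9 d. Each 0 d library was above every later one, 3 d was the lowest day, and 6 d and 9 d overlapped. The log2 differences from 0 d were -0.62, -0.39 and -0.29. STEAP3 and SLC11A2 thus had their lowest day at 3 d, where TF was highest, and TFRC had its lowest day at 6 d.

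CD163 is the receptor for hemoglobin bound to haptoglobin. Of the 8 genes with FPKM above 0 in all 12 libraries, it had the widest range as a fold. It had 0.59, 0.79 and 0.57 FPKM at 0 d, 204, 114 and 85.2 at 3 d, 28.3, 26.4 and 13.0 at 6 d, with 3.97, 2.72 and 2.98 at 9 d. No days overlapped, and the 3 d libraries also spread the most, with replicate 1 the highest. The mean of 134 ± 61.9 FPKM (SD, n = 3) at 3 d was 206 times the mean of 0.65 at 0 d, and the mean at 9 d was 4.96 times that of 0 d. On the log2 scale the differences from 0 d were 7.40, 4.85 and 2.14, and they were 6.26, 3.76 and 1.35 when 1 was added in place of 0.1.

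The macrophage markers were low in every library. Of 20 genes in that list 19 had a row, ADGRE1 had none, and CD14 was the most abundant, with a mean of 1.64 FPKM over the 12 libraries. PTPRC, ITGAM, C1QA, C1QC, TYROBP and MARCO were listed at 0 in all 12, among them the pan-leukocyte gene PTPRC. Their summed level was 3.53, 3.23 and 3.12 FPKM at 0 d, 5.94, 5.67 and 5.89 at 3 d, 5.39, 6.04 and 5.50 at 6 d, with 6.00, 6.02 and 4.73 at 9 d. The sum was higher on each later day than at 0 d, without overlap, and it did not come back down at 6 d and 9 d as CD163 did. Each 3 d library held more FPKM of CD163 than of the whole macrophage list. In bulk libraries, fewer cells of a type and less RNA per cell cannot be told apart. Of the macrophage markers 6 were tested, and CD14, CSF1R and SIGLEC1 rose while LAPTM5 and MRC1 fell at 3 d against 0 d. These 5 of the 6 were called, by the rule given below, beside 23.3% of all mRNAs. No library passed 2.66 FPKM for CD14, 2.50 for MRC1, 1.85 for SIGLEC1, 1.32 for LAPTM5 or 0.97 for CSF1R. At such levels the log2 fold change depends on the value added to the FPKM. For 6 d against 3 d 4 of the 6 were called, beside 19.1% of all mRNAs. From 3 d to 6 d CSF1R and SIGLEC1 fell, the latter by 1.22, as CD163 was lower there too, while LAPTM5 and MRC1 rose, by 1.51 and 3.28.

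**Figure D2:**
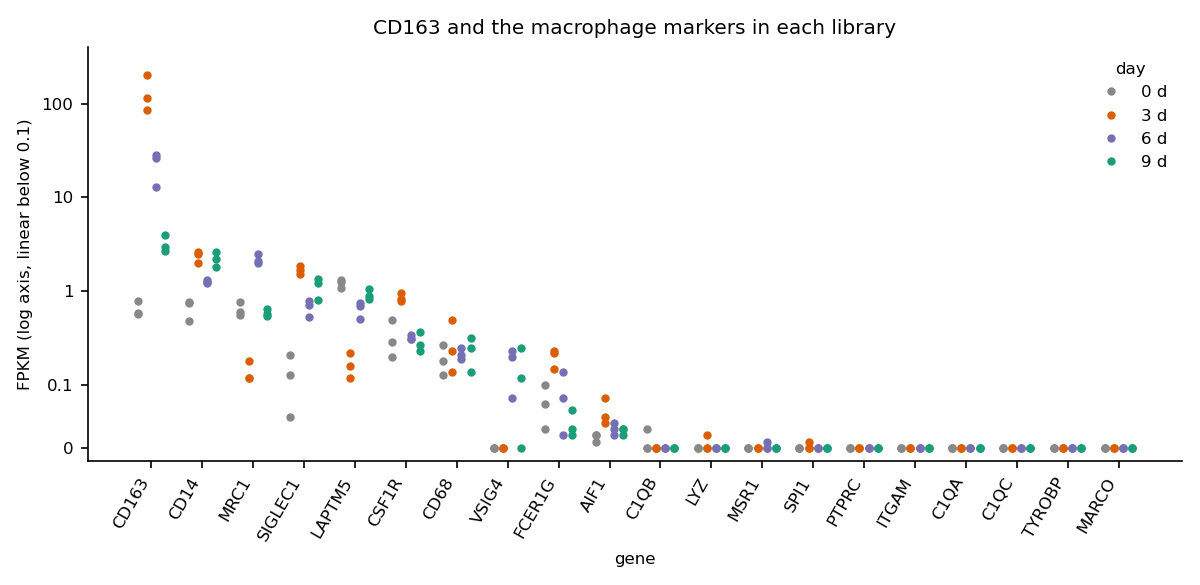
FPKM of CD163 and of the 19 macrophage markers that have a row, on a log axis that is linear below 0.1. Each point is a library and colors are days; CD163 at 3 d lies above every marker, and 6 markers are at 0 throughout.

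HMOX1, heme oxygenase 1, opens the heme ring and frees iron. It had 4.17, 3.88 and 4.63 FPKM at 0 d, 8.71, 7.21 and 7.99 at 3 d, 2.29, 2.99 and 2.34 at 6 d, with 4.41, 3.59 and 4.95 at 9 d. All 3 d libraries were the highest and all 6 d libraries the lowest, while 0 d and 9 d overlapped. The log2 difference was 0.90 for 3 d against 0 d, -0.72 for 6 d against 0 d and -1.62 for 6 d against 3 d. The ratio of CD163 to HMOX1 FPKM was 0.156 ± 0.0422 (SD, n = 3) at 0 d, 16.6 ± 6.41 at 3 d, 8.91 ± 3.41 at 6 d, with 0.753 ± 0.149 at 9 d.

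The ferritin chains were the most abundant of the 9 genes by summed FPKM. FTL, the light chain, had 1206, 1248 and 1296 FPKM at 0 d, 1000, 1313 and 1120 at 3 d, 853, 930 and 906 at 6 d, with 1539, 1302 and 1533 at 9 d. The 6 d libraries were the lowest, 3 d overlapped with both 0 d and 9 d, and every 9 d library lay just above every 0 d library. The log2 differences from 0 d were -0.14, -0.48 and 0.22. FTL had the highest FPKM of the 9 genes on all 4 days, and it ranked 134, 124, 195 and 106 among all rows by day mean.

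FTH1, the heavy chain, which oxidizes iron as it enters the shell, had 79.3, 78.1 and 87.7 FPKM at 0 d, 101, 107 and 99.8 at 3 d, 87.8, 87.3 and 87.2 at 6 d, with 203, 209 and 209 at 9 d. The 9 d libraries stood far above all others, 3 d came next, and 0 d and 6 d overlapped. Its log2 difference from 0 d was 0.33 at 3 d, 0.10 at 6 d and 1.34 at 9 d. From 6 d to 9 d the mean went from 87.4 ± 0.309 to 207 ± 3.21 FPKM (SD, n = 3), a log2 difference of 1.24. How reads that also match ferritin copies elsewhere in the genome were counted is not given in the sources used here.

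The balance between the chains moved with this. FTL over FTH1, as a ratio of FPKM, was 15.3 ± 0.604 (SD, n = 3) at 0 d, 11.1 ± 1.19 at 3 d, 10.3 ± 0.480 at 6 d, with 7.05 ± 0.714 at 9 d. The lowest 0 d library stood at 14.8 and the highest later library at 12.2, and 3 d and 6 d overlapped. A ratio within a library does not depend on the scaling between libraries. Both chains together had 1332, 1247, 984 and 1665 FPKM by day mean, which was 83.5, 77.2, 82.5 and 87.1% of the summed FPKM of the 9 genes. All 9 genes together made up 0.122, 0.129, 0.0912 and 0.141% of the summed FPKM of the table.

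**Figure D3:**
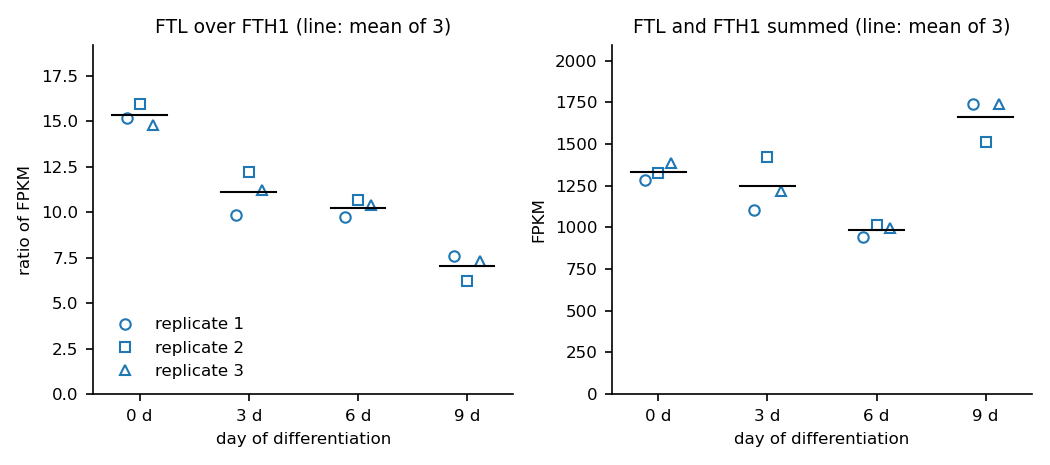
Left, the ratio of FTL to FTH1 FPKM; right, their summed FPKM; both by day, on linear axes from 0. Symbols are replicates and lines are means of 3 libraries; the ratio has its highest values at 0 d and its lowest at 9 d.

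SLC40A1, ferroportin, is the one known exporter of iron from cells. It had 134, 120 and 120 FPKM at 0 d, 93.9, 98.0 and 98.1 at 3 d, 85.0, 78.4 and 91.3 at 6 d, with 91.1, 95.6 and 93.5 at 9 d. Every 0 d library was above every later one, and 9 d overlapped with both 3 d and 6 d. The log2 differences from 0 d were -0.37, -0.55 and -0.42. The ratio of SLC40A1 to TFRC FPKM was 1.67, 1.53, 2.66 and 1.15 by day mean, and the 6 d value held 1 library at 4.003, the replicate 3 with low TFRC.

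The order of levels, in FPKM, shifted with the days. At 0 d it was FTL, SLC40A1, FTH1, TFRC, SLC11A2, STEAP3, HMOX1, CD163 and TF, and of these neighbours FTH1 and TFRC overlapped. CD163 was second in mean level at 3 d, but its libraries overlapped in level with FTH1 and SLC40A1. At 9 d FTH1 was second, and CD163 was last with a level that overlapped with HMOX1. By day mean, 4 genes were higher and 5 lower at 3 d than at 0 d, 3 were higher and 6 lower at 6 d, and 6 were higher and 3 lower at 9 d. STEAP3, lower at 6 d and 9 d, turned to slightly higher on both days under the median-ratio rescaling, with 0.091 and 0.029.

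The scale of the whole table bears on such small differences. Over the 15401 mRNAs tested, the median log2 fold change was -0.06 at 3 d, -0.15 at 6 d and -0.19 at 9 d against 0 d. Rescaling libraries by the median ratio of the tested mRNAs moved these medians to 0.02, 0.00 and -0.01. Under it, FTH1 at 9 d had a log2 difference of 1.55, SLC40A1 had -0.28, -0.39 and -0.21 on the 3 later days, and SLC11A2 at 9 d had -0.088.

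An mRNA was called when its log2 fold change was beyond 1 in either direction and its adjusted p in limma was under 0.05. At 3 d against 0 d 23.3% of all tested mRNAs were called, at 6 d 11.4% and at 9 d 10.9%. For 6 d against 3 d the share was 19.1%, and for 9 d against 6 d it was 4.43%. Against 0 d more were lower than higher, 15.2% and 8.06% at 3 d, 7.97% and 3.39% at 6 d, with 7.47% and 3.41% at 9 d. With 1 added in place of 0.1 the shares called against 0 d were 14.2, 6.28 and 5.77%.

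Genes with alike patterns were taken as those with the highest Pearson r over the 12 libraries, on log2(FPKM + 0.1), as a description. The libraries share days, so r mostly reflects day means. For CD163 they were the row of PICALM and LOC112444846 (r = 0.99), DKK1 and the fatty acid carrier FABP4. DKK1 was listed at 0 FPKM at 0 d and had 10.9 at 3 d, and FABP4 went from 3.30 to 91.1. For TF they were DGAT2, which makes triglycerides, DDIT4 and the glucose transporter SLC2A1, with DGAT2 at 0.0733, 21.8, 8.27 and 9.25 FPKM by day. For FTH1 they were CCNG1, LOC781022 and TPT1, and for FTL they were the hyaluronan synthase HAS1, MAN2B1 and MPZL1.

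For HMOX1 the nearest patterns were those of TWIST2, RAB9A and ABCA10, and for SLC40A1 those of GANC, POLR3F and FRMD4B. SLC11A2 was nearest to TMEM54, IRX3 and SYDE2, and STEAP3 to ARSI, MGAT5B and PLS3. TFRC had its nearest patterns in the row of NUDT3 and LOC100126544, METTL21A and ZFAND1, where the highest r was 0.94. For the other 8 genes the highest r lay between 0.98 and 0.99.

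Further genes were followed in 10 lists, 7 of iron and heme genes and 3 of genes that respond to NRF2, hypoxia or glucocorticoids, which act on some of the chosen genes. Of their 96 genes 87 could be tested, and 42 were called in at least 1 comparison. Against 0 d, 30 were called at 3 d, 16 higher and 14 lower, 19 at 6 d, 14 higher and 5 lower, and 25 at 9 d, 16 higher and 9 lower. That is 34.5, 21.8 and 28.7% of the tested genes, beside 23.3, 11.4 and 10.9% of all mRNAs, and most of the higher calls came from the response lists. The 7 lists of iron and heme genes had 7 higher and 11 lower at 3 d, 3 higher and 5 lower at 6 d, with 4 higher and 6 lower at 9 d, or 29, 12.9 and 16.1% of their 62 tested genes. Under the median-ratio rescaling these 7 lists had 7 higher and 9 lower, 4 and 4, and 8 and 4, so that the direction at 9 d turned, and over all lists the 9 d split was 20 higher and 5 lower. With 1 added in place of 0.1 the 7 lists had 4 higher and 7 lower, 2 and 3, and 3 and 4. The median log2 fold change over all lists was 0.15, 0.05 and -0.10, beside -0.06, -0.15 and -0.19 over all mRNAs. Between later days 18 were called for 6 d against 3 d, 11 higher and 7 lower, and 6 for 9 d against 6 d, 1 higher and 5 lower. That is 20.7 and 6.9% of the tested genes, beside 19.1 and 4.43% of all mRNAs. For the 7 lists of iron and heme genes the shares were lower than over all mRNAs, at 11.3 and 1.61%.

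The genes too low to test, with a mean under 0.1 FPKM, include known hormones and carriers of iron. LTF, HEPHL1, the liver hormone HAMP and the mitochondrial ferritin FTMT were listed at 0 in all 12 libraries. STEAP4, LCN2, TMPRSS6, the erythroid ALAS2 and the heme binder HPX did not pass 0.09 FPKM in any library.

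**Figure D4:**
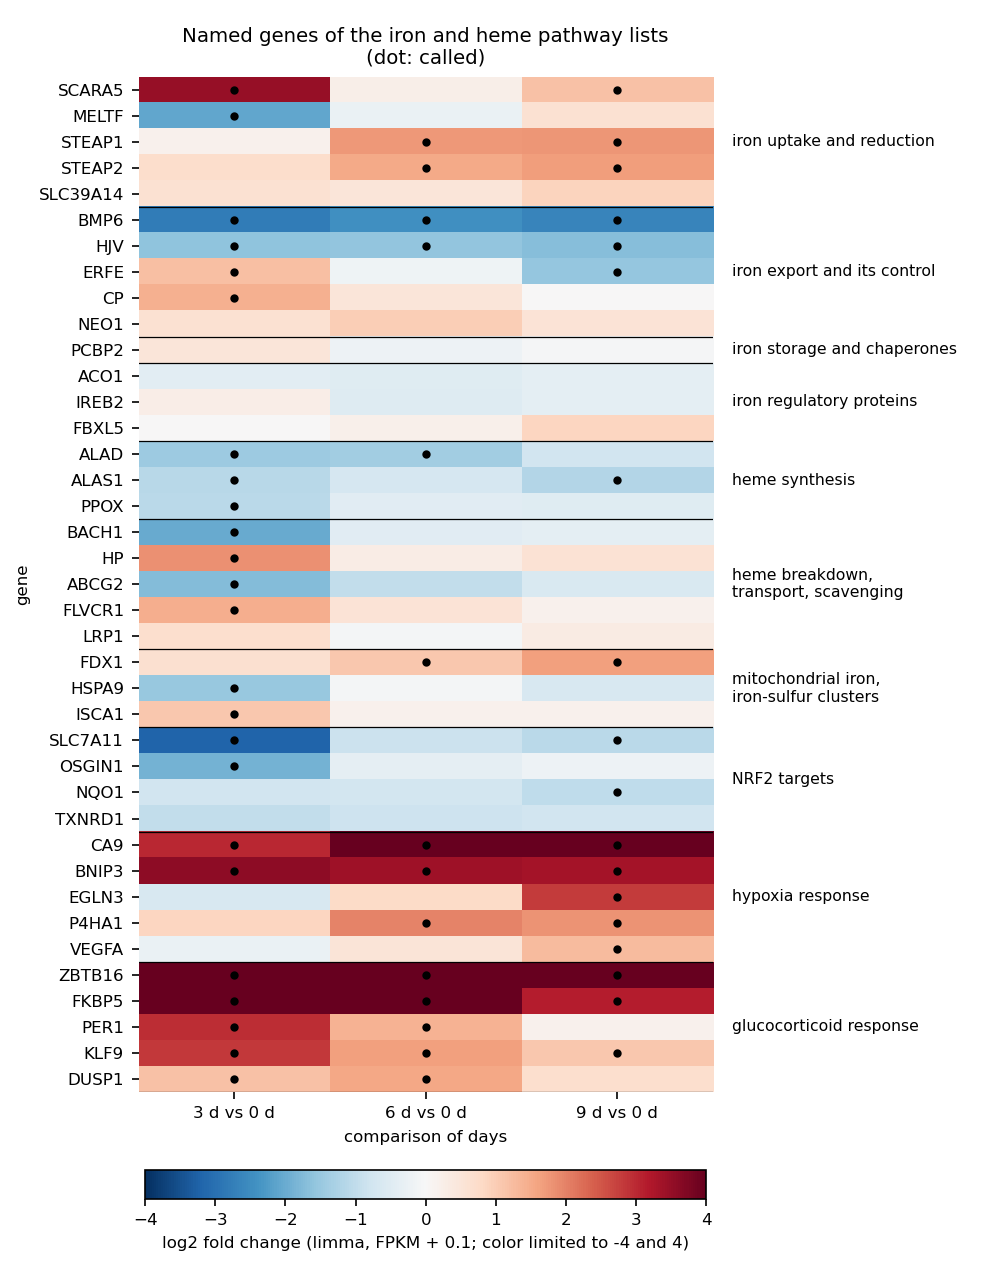
Log2 fold change of the named genes of the 10 lists at 3 d, 6 d and 9 d against 0 d (limma on log2(FPKM + 0.1)), as color from blue (lower) to red (higher), limited to -4 and 4. A dot marks a call; the heme synthesis genes shown with a dot are lower, and the glucocorticoid response genes shown with a dot are higher (SGK1 is not shown).

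Among other genes of iron uptake and reduction, 3 of 9 were called at 3 d, SCARA5 higher and MELTF and HFE lower. Over all mRNAs it was 23.3%. SCARA5, a receptor that takes up ferritin, had 1.81, 1.47 and 1.71 FPKM at 0 d, 21.0, 20.4 and 17.6 at 3 d, 2.27, 1.74 and 1.88 at 6 d, with 3.76, 3.66 and 4.26 at 9 d. It rose at 3 d, by a log2 fold change of 3.49 (SE 0.124, adjusted p = 7.45e-09), and fell from 3 d to 6 d, by -3.26. At 9 d it was above 0 d by 1.18, which with 1 added in place of 0.1 was 0.88 and no longer called. The iron-binding membrane protein MELTF had a log2 fold change of -2.09 at 3 d at levels under 0.5 FPKM, and it lost its call, at -0.44, with 1 added, as did HFE, at -0.95.

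STEAP1 and STEAP2, relatives of STEAP3, were called at 6 d and 9 d. At 3 d they had 0.18 and 0.69 without a call, the latter at an adjusted p of 0.00026. At 6 d STEAP1 rose by 1.74 (SE 0.0806, adjusted p = 1.64e-07) and STEAP2 by 1.53 (SE 0.104, adjusted p = 2.15e-06), and at 9 d they stood 1.76 and 1.66 above 0 d. In this list 3 of 9 were called at 6 d, 2 higher and 1 lower, and 4 at 9 d, 3 higher and 1 lower. Over all mRNAs 11.4% were called at 6 d and 10.9% at 9 d. The lower one, CYBRD1, lost its call under the rescaling on both days, at -0.99 and -0.92, and TFR2 at 9 d gained one under it and without 9 d replicate 3, at 1.11 both times. SLC39A14, the most abundant gene of the list, had 172, 261, 240 and 324 FPKM by day. It was not called at 9 d, with a log2 fold change of 0.91, and under the rescaling it was, at 1.11. The list's medians were 0.18, 0.18 and 0.91 on the 3 days, beside -0.06, -0.15 and -0.19 over all mRNAs.

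Of iron export and its control 6 genes could be tested, and 4 were called at 3 d, 2 at 6 d and 3 at 9 d. Over all mRNAs 23.3, 11.4 and 10.9% were called. BMP6, a signal that raises hepcidin in liver, fell from 15.3, 16.0 and 14.9 FPKM at 0 d to 2.05, 2.09 and 2.25 at 3 d. Its log2 fold change was -2.80 at 3 d (SE 0.206, adjusted p = 1.53e-06), -2.45 at 6 d and -2.65 at 9 d. HJV, its co-receptor, was lower on the same days at levels under 0.5 FPKM, and with 1 added it was not called, at -0.35, -0.35 and -0.37. ERFE, which binds BMPs, rose by 1.19 at 3 d and was lower than at 0 d by -1.55 at 9 d. CP, a ferroxidase, had a log2 fold change of 1.42 at 3 d, and 0.64 without a call when 1 was added.

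NEO1, a receptor that binds HJV and the most abundant gene of that list, had 84.8, 128, 168 and 125 FPKM by day. At 6 d its log2 fold change of 0.99 was not called, and it was called under the rescaling (1.16), without 0 d replicate 1 (1.04), without 0 d replicate 2 (1.03) and without 6 d replicate 1 (1.03). Its lowest value over the leave-outs was 0.90. The medians of the export list were 0.18, -0.15 and -0.77, and that at 6 d turned to 0.01 under the rescaling. Of the 4 tested genes of iron storage and chaperones limma called 0 against 0 d, while at an unadjusted p under 0.05 there were 3, 1 and 1 at 3 d, 6 d and 9 d. The share of all mRNAs at that p, which needs no minimum fold change, is not given here. The medians of the 4 genes were 0.12, -0.04 and -0.03, and the last pair turned to 0.13 and 0.17 under the rescaling. PCBP2, in a row with LOC112446842, was the most abundant, at 113, 157, 98.4 and 109 FPKM.

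The iron regulatory proteins bind the mRNAs of ferritin and of the transferrin receptor. ACO1 (IRP1) had 159, 118, 114 and 121 FPKM by day mean, and IREB2 (IRP2) had 71.7, 86.5, 50.1 and 55.0. FBXL5, which marks IREB2 for breakdown when iron is ample, had 16.9, 15.7 and 14.6 FPKM at 0 d and 29.3, 29.7 and 26.6 at 9 d. All 9 d libraries of FBXL5 were above all earlier ones. limma called 0 of these 3 genes in each of the 5 comparisons, while at an unadjusted p under 0.05 there were 2, 3 and 3 at 3 d, 6 d and 9 d against 0 d. Such a p needs no minimum fold change, and the share of all mRNAs under it is not given here. FBXL5 at 9 d, with a log2 fold change of 0.86, was called under the rescaling, at 1.06. The medians of the 3 genes were 0.00, -0.47 and -0.39. At 9 d, where FTH1 was highest, ACO1 had a log2 fold change of -0.39 and IREB2 of -0.39. How far these proteins act on the 9 genes was not tested.

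Of the 8 tested genes of heme synthesis 3 were called at 3 d, all lower, beside 15.2% lower and 8.06% higher among all mRNAs. They were ALAS1, the first and rate-limiting enzyme, ALAD, the second, and PPOX, the last but one. CPOX and UROS were above 0 d at 3 d without a call, at 0.64 and 0.27. ALAS1 had 64.5, 58.7 and 71.0 FPKM at 0 d, 27.1, 31.9 and 29.9 at 3 d, 39.6, 43.3 and 38.0 at 6 d, with 27.7, 29.5 and 28.5 at 9 d. Every later library was below every 0 d library, and its log2 fold change was -1.12 at 3 d (SE 0.0876, adjusted p = 2.33e-06). ALAD fell by 1.45 at 3 d (SE 0.127, adjusted p = 5.44e-06) and by 1.40 at 6 d. PPOX, at 543 FPKM at 0 d and 257 at 3 d, had -1.08, and -0.99 without a call under the rescaling.

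At 9 d ALAS1 had a log2 fold change of -1.17, the one call of that list, and it lost the call under the rescaling, at -0.97. The list's medians were -0.63, -0.09 and -0.45, beside -0.06, -0.15 and -0.19 over all mRNAs, and that at 6 d turned to 0.07 under the rescaling. HMOX1, by contrast in level, was higher at 3 d than on any other day.

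In heme breakdown, transport and scavenging 5 of 12 genes were called at 3 d, 2 higher and 3 lower. Over all mRNAs 23.3% were called, 8.06% higher and 15.2% lower. With 1 added in place of 0.1 the list had 3 calls at 3 d, 1 higher and 2 lower, beside 14.2% of all mRNAs. BACH1, a repressor that heme removes from the HMOX1 promoter, had 264, 277 and 248 FPKM at 0 d, 72.4, 60.2 and 63.5 at 3 d, 226, 142 and 224 at 6 d, with 231, 143 and 242 at 9 d. It fell by 2.01 at 3 d (SE 0.222, adjusted p = 3.13e-05) and rose again by 1.56 from 3 d to 6 d (adjusted p = 0.000226). The day with the lowest BACH1 was the day with the highest HMOX1, and whether the former acts on the latter was not tested. The heme exporter FLVCR1 rose by 1.46 at 3 d (SE 0.0592, adjusted p = 1.85e-08), from 5.30 to 14.8 FPKM by day mean.

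ABCG2, which also exports heme and porphyrins, fell by 1.73 at 3 d (SE 0.0641, adjusted p = 9.80e-09), from 365 to 110 FPKM. At 6 d it had -0.99 without a call, and it was called without 0 d replicate 1 (-1.003) and without 6 d replicate 3 (-1.01). HP, haptoglobin, whose complex with hemoglobin is the ligand of CD163, had means of 0.0667, 0.490, 0.103 and 0.147 FPKM. Its log2 fold change at 3 d was 1.82, and with 1 added it was 0.48 and not called. FLVCR2, at levels under 0.4 FPKM, was the third lower gene at 3 d, and its call was lost without 0 d replicate 3 (-0.93), 3 d replicate 1 (-0.94) or 3 d replicate 3 (-0.98) and under the rescaling (-0.94). FLVCR2 was also the 1 call of the list at 6 d and at 9 d, beside 11.4 and 10.9% of all mRNAs. With 1 added it had -0.23, -0.24 and -0.27 and no call, which leaves the list none on those later days. LRP1, the receptor for heme bound to hemopexin, was the most abundant gene of the list, at 42272 FPKM at 0 d and 67866 at 3 d, and its log2 fold changes of 0.68, -0.08 and 0.34 were not called. The list's medians were 0.19, 0.13 and -0.07, and the last turned to 0.13 under the rescaling.

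In the list of mitochondrial iron and iron-sulfur clusters, 3 of 20 genes were called at 3 d, 1 at 6 d and 1 at 9 d, or 15, 5 and 5% beside 23.3, 11.4 and 10.9% of all mRNAs. Among those called at 3 d, the cluster assembly gene ISCA1 rose by 1.08. HSPA9, a mitochondrial chaperone in a row with LOC112447603, fell by 1.52 at 3 d (SE 0.0639, adjusted p = 2.42e-08) and rose by 1.44 from 3 d to 6 d. FDX1, a ferredoxin that passes electrons to mitochondrial enzymes, had means of 5.66, 8.82, 12.02 and 17.4 FPKM and rose by 1.63 at 9 d (SE 0.188, adjusted p = 0.000105). At 6 d it had 1.08, and that call was lost without 0 d replicate 2 (0.95), without 6 d replicate 3 (0.95) or with 1 added (0.97). GLRX5, at 0.19, 2.85 and 0.34 FPKM at 0 d, had 2.07, 2.37 and 2.27 on the 3 later days without a call. It gained a call without 0 d replicate 2 or without 3 d replicate 1, with log2 fold changes of 3.08 and 3.06 at 3 d, 3.39 and 2.37 at 6 d, with 3.29 and 2.27 at 9 d, and without 0 d replicate 1 its values were 1.41, 1.71 and 1.62 without one. SLC25A28 gained one at 9 d without 0 d replicate 3, at 1.01, and under the rescaling, at 1.06, and its lowest value over the leave-outs was 0.77. The list's medians were 0.17, 0.08 and -0.17.

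NRF2 is a factor that also acts on HMOX1 and the ferritin genes. Of 8 other targets limma called 2 at 3 d, 0 at 6 d and 2 at 9 d, all lower, with 7 at an unadjusted p under 0.05 at 6 d. For that unadjusted p, which needs no minimum fold change, the share of all mRNAs is not given here. The 25% called at 3 d stand beside 23.3% over all mRNAs, most of them lower, and the 25% at 9 d beside 10.9%. GCLC and GCLM were above 0 d at 3 d without a call, at 0.52 and 0.51. SLC7A11, the cystine importer, had 107, 103 and 84.0 FPKM at 0 d and 10.9, 9.98 and 10.95 at 3 d, and it fell by 3.19 (SE 0.110, adjusted p = 6.13e-09). It rose by 2.32 from 3 d to 6 d. At 9 d it stood at -1.06 against 0 d, and that call was lost without 0 d replicate 1 (-0.998) and under the rescaling (-0.86). OSGIN1, in a row with NECAB2, had -1.90 at 3 d at under 0.7 FPKM, and -0.55 without a call when 1 was added. NQO1 at 9 d had -1.02, and it was not called without 0 d replicate 1 (-0.98), without 9 d replicate 2 (-0.96) or under the rescaling (-0.81). TXNRD1, the most abundant, had 684, 347, 385 and 401 FPKM and was not called. Over the 8 genes the medians were -0.74, -0.35 and -0.50.

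Hypoxia response genes rose, most of them by 9 d, where 9 of 10 were called and all 9 were higher. Over all mRNAs 10.9% were called at 9 d and 3.41% were higher. With 1 added in place of 0.1 the count at 9 d was 7, beside 5.77% of all mRNAs. At 3 d 4 were called, beside 23.3% of all mRNAs, with CA9, BNIP3 and SLC2A1 higher and NDRG1 lower. At 6 d 5 were called, beside 11.4% of all mRNAs. They were CA9, BNIP3, SLC2A1, P4HA1 and ADM, all higher. CA9, a carbonic anhydrase, had 1.17, 0.99 and 1.22 FPKM at 0 d, 10.3, 8.75 and 10.4 at 3 d, 59.4, 68.6 and 57.9 at 6 d, with 63.5, 66.1 and 42.4 at 9 d. It rose by 5.66 at 6 d (SE 0.165, adjusted p = 9.52e-09). BNIP3, in a row with LOC104976020, stood 3.58, 3.39 and 3.34 above 0 d, where it had 3.71, 17.95 and 3.50 FPKM, and without replicate 2 of that day it stood 4.35, 4.16 and 4.10 above it. VEGFA, the most abundant, rose by 1.28 at 9 d. The list's medians were 0.78, 1.02 and 1.69, beside -0.06, -0.15 and -0.19 over all mRNAs. TF and TFRC are known targets of the hypoxia factor HIF1, and the part of hypoxia in their levels was not tested.

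Within that list, EGLN3 rose by 2.81 at 9 d and P4HA1 by 1.97 at 6 d and 1.79 at 9 d. P4HA1 had 47.65, 43.2 and 12.9 FPKM at 0 d. Without replicate 3, the low one, it had 1.37 at 6 d and 1.18 at 9 d, still called, and 0.27 at 3 d. Its 0.87 at 3 d gained a call without 0 d replicate 1 (1.21) or 0 d replicate 2 (1.14). The -0.63 of EGLN3 at 3 d gained one without 0 d replicate 1 (-1.13), and without 0 d replicate 2 it was -0.35. ANKRD37 gained one at 3 d under the rescaling (1.03) and without 0 d replicate 2 (1.06), 0 d replicate 3 (1.00) or 3 d replicate 1 (1.07). At 6 d it gained one under the rescaling (1.06) and without 0 d replicate 2 (1.03) or 6 d replicate 3 (1.09), and PDK1 did under the rescaling (1.16) and without 0 d replicate 1 (1.06) or 6 d replicate 2 (1.01). Over the leave-outs the lowest values of ANKRD37 were 0.91 at 3 d and 0.83 at 6 d, and that of PDK1 was 0.95. With 1 added both lost their calls at 9 d, at 0.62 and 0.91.

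Glucocorticoid response genes are given because the induction medium holds DEX and because CD163 is known as a glucocorticoid-induced gene in monocytes. Of 7 tested, 6 were called at 3 d and 6 at 6 d, all higher, and 4 at 9 d, ZBTB16, FKBP5 and KLF9 higher and SGK1 lower. Over all mRNAs 23.3, 11.4 and 10.9% were called on these days, and 8.06, 3.39 and 3.41% were higher. ZBTB16 had 0.53, 0.25 and 0.25 FPKM at 0 d, 355, 330 and 162 at 3 d, 84.4, 93.0 and 63.3 at 6 d, with 15.6, 9.89 and 11.5 at 9 d. It rose by 9.29 at 3 d (SE 0.339, adjusted p = 8.70e-09) and fell by 2.70 from 6 d to 9 d. KLF9, in a row with LOC104969351, stood 2.83, 1.66 and 1.07 above 0 d, and DUSP1, the most abundant, rose by 1.16 and 1.53 at 3 d and 6 d.

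FKBP5 had 0.50, 0.48 and 0.29 FPKM at 0 d and 114, 22.7 and 113 at 3 d, and rose by 7.02 (SE 0.759, adjusted p = 2.66e-05). PER1 rose by 2.94 at 3 d, and its 1.40 at 6 d was 0.87 and not called with 1 added. FKBP5 at 9 d, with 3.15, was not called either with 1 added, at 1.97 (adjusted p = 0.051). The list's medians were 2.83, 1.53 and 0.67, beside -0.06, -0.15 and -0.19 over all mRNAs. ZBTB16 and CD163 had the same order of days, 3 d, 6 d, 9 d and 0 d, and whether DEX acts on CD163 was not tested.

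The labelled cell type was checked against markers. Mesenchymal markers were abundant, with 10 of 10 above a mean of 1 FPKM and COL3A1 the highest. Their sum was 154990, 186740, 170780 and 258860 FPKM by day, highest at 9 d as FTH1 and FTL were, and its part in those levels was not tested. COL3A1 alone had 173652, 163376 and 175454 FPKM of the sum in the 9 d libraries. At 3 d 9 of the 10 were called, 4 higher and 5 lower, beside 23.3% of all mRNAs. At 9 d against 0 d 2 of the 10 were called, both higher, beside 10.9% of all mRNAs. The median log2 fold change of the 10 was 0.38 at 9 d. Of 12 adipocyte markers all had a row, PLIN1 was the most abundant with a mean of 35.1 FPKM in a shared row, and their sum was 63.7, 204, 110 and 101 FPKM by day. At 3 d against 0 d 8 of the 12 were called, 6 higher and 2 lower, beside 23.3% of all mRNAs. At 6 d and at 9 d 6 were called, all higher, beside 11.4 and 10.9%. The adipocyte hormone ADIPOQ did not pass 1.64 FPKM in any library, and FABP4 was highest at 3 d. LEP, a further hormone of the list, had 2.17, 2.39 and 2.47 FPKM at 0 d, 0, 0.21 and 0 at 3 d, 9.97, 8.60 and 5.50 at 6 d, with 25.3, 16.6 and 19.6 at 9 d. Skeletal muscle markers were also present, 9 of 10 with a row, with DES the most abundant at 263 FPKM and sums of 894, 282, 404 and 322 FPKM by day. MYOD1, a defining gene of myoblasts, had 240, 260 and 303 FPKM at 0 d, and PAX7 had no row. The muscle sum was highest at 0 d, where SLC11A2 and SLC40A1 also were, and its part in their levels was not tested.

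Cell types known for iron and heme turnover left little signal. Among 8 erythroid markers HBB and SLC4A1 were listed at 0 in all libraries, and EPOR was the highest, at a mean of 0.298 FPKM. Of 8 hepatocyte markers, for the cells that make plasma transferrin, APOB and AHSG were listed at 0, and APOA1 was the highest, at 0.387 FPKM. The sums by day were 0.863, 0.173, 0.407 and 0.430 FPKM for erythroid markers. For hepatocyte markers they were 0.963, 0.0733, 0.813 and 0.497 FPKM, and both were lowest at 3 d. TF was highest at 3 d, and the part of such cells in its level was not tested. The hepatocyte sum at 6 d was 1.47, 0.16 and 0.81 FPKM by library, with APOA1 alone at 1.42 in replicate 1. Endothelial markers, 7 of 7 with a row, summed to 3.33, 3.60, 2.73 and 3.00 FPKM, with VWF the highest at 2.06.

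Circular RNAs were looked up by the host gene the table names for them. They are read from back-spliced reads, which did not enter the choice of genes, and each library held between 5358 and 10729 of these. Among 14070 circular RNAs 11 came from the chosen genes, 6 from SLC11A2, 4 from TFRC and 1 from STEAP3, and the other 6 genes had none listed. Those with at least 5 reads over the 12 libraries were tested, which left 4, circRNA1942 and circRNA2447 of SLC11A2, and circRNA4429 and circRNA6734 of TFRC.

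The most read was circRNA1942, of 3 exons on the plus strand of chromosome 5 from 28743526 to 28744550 in the table's coordinates, for which the methods name ARS-UCD1.2. It had 13, 10 and 0 reads at 0 d, 0, 4 and 7 at 3 d, 4, 7 and 0 at 6 d, with 15, 19 and 18 at 9 d. The 9 d libraries had the most of its reads and also the most back-spliced reads in all. Per 1000 of these it had 1.82, 1.52 and 0 at 0 d, 0, 0.481 and 0.816 at 3 d, 0.631, 1.31 and 0 at 6 d, with 1.54, 1.96 and 1.68 at 9 d, so that 9 d overlapped with 0 d and lay above 3 d and 6 d. A further entry, circRNA9537, differs from it in the first coordinate alone, 28743525, and had 2 reads in all, both in 6 d replicate 3, where circRNA1942 has 0. How far that 0 comes from reads listed under the other start was not tested. The other tested ones had 17, 7 and 5 reads over all libraries.

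edgeR called 0 of the 4 in each of the 5 comparisons. DESeq2 also called 0. Summed per host gene, SLC11A2 and TFRC also had 0 calls, and SLC11A2 had an unadjusted p of 0.0414 at 3 d against 0 d (log2 fold change -1.15) and of 0.0176 for 9 d against 6 d (1.23). For single circular RNAs, at an unadjusted p under 0.05 edgeR had 0, 0, 0 and 0 in the first comparisons and 1 for 9 d against 6 d, circRNA1942 with a log2 fold change of 1.69 and an adjusted p of 0.664. Over all 2828 tested circular RNAs the share called was 0.813% at 3 d, 0.53% at 6 d and 0.566% at 9 d against 0 d. It was 0.424% for 6 d against 3 d and 0.389% for 9 d against 6 d.

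Small RNA reads were searched for 12 miRNAs, and the literature ties 11 of them to the chosen genes or to BACH1 or ISCU, a scaffold of iron-sulfur clusters. The last, bta-miR-485, was listed for SLC40A1, but that tie is known for miR-485-3p, the other arm of its hairpin, so it is not printed below and enters the counts alone. The 11 are shown because a miRNA finds its targets through its seed, bases 2 to 8 from the left end, here in capitals. Sequences are the forms read most under each name in the table, in DNA letters.
bta-miR-210 (TFRC and ISCU): cTGTGCGTgtgacagcggctga
bta-miR-22-3p (TFRC): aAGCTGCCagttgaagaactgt
bta-miR-152 (TFRC): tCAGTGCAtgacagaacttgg
bta-miR-320a (TFRC): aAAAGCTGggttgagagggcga
bta-let-7d (SLC11A2): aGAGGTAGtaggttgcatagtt
bta-miR-20a (SLC40A1): tAAAGTGCttatagtgcaggtag
bta-miR-20b (SLC40A1): cAAAGTGCttacagtgcaggtagtt
bta-miR-200b (FTH1): tAATACTGcctggtaatgatgac
bta-miR-196a (BACH1): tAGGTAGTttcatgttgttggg
bta-miR-196b (BACH1): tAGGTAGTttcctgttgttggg
bta-miR-155 (BACH1): tTAATGCTaatcgtgataggggtt
bta-miR-20a and bta-miR-20b share the seed AAAGTGC, and bta-miR-196a and bta-miR-196b share AGGTAGT, and the other seeds differ. The form of bta-miR-210 in the table starts 1 base later than the form the table gives from miRBase, aCTGTGCGtgtgacagcggctga, so that its seed by this count is shifted by 1 base.

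All 12 had a row, and 11 had the 10 or more reads over the 12 libraries needed for a test, with bta-miR-20b left out at 2 reads. The form under that name differs from the miRBase form of bta-miR-20b at base 10 and ends 3 bases later, with the same seed. Whether its 2 reads come from bta-miR-20b was not tested. Levels below are CPM, the count scaled to a common library total, after TMM scaling (a correction for library composition in edgeR), from libraries of 1851720 to 5636256 raw reads. bta-miR-320a was the most abundant, at 13195, 19173, 16780 and 14273 CPM by day. bta-miR-200b, bta-miR-196a and bta-miR-196b had 52, 71 and 13 reads over all libraries.

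**Figure D5:**
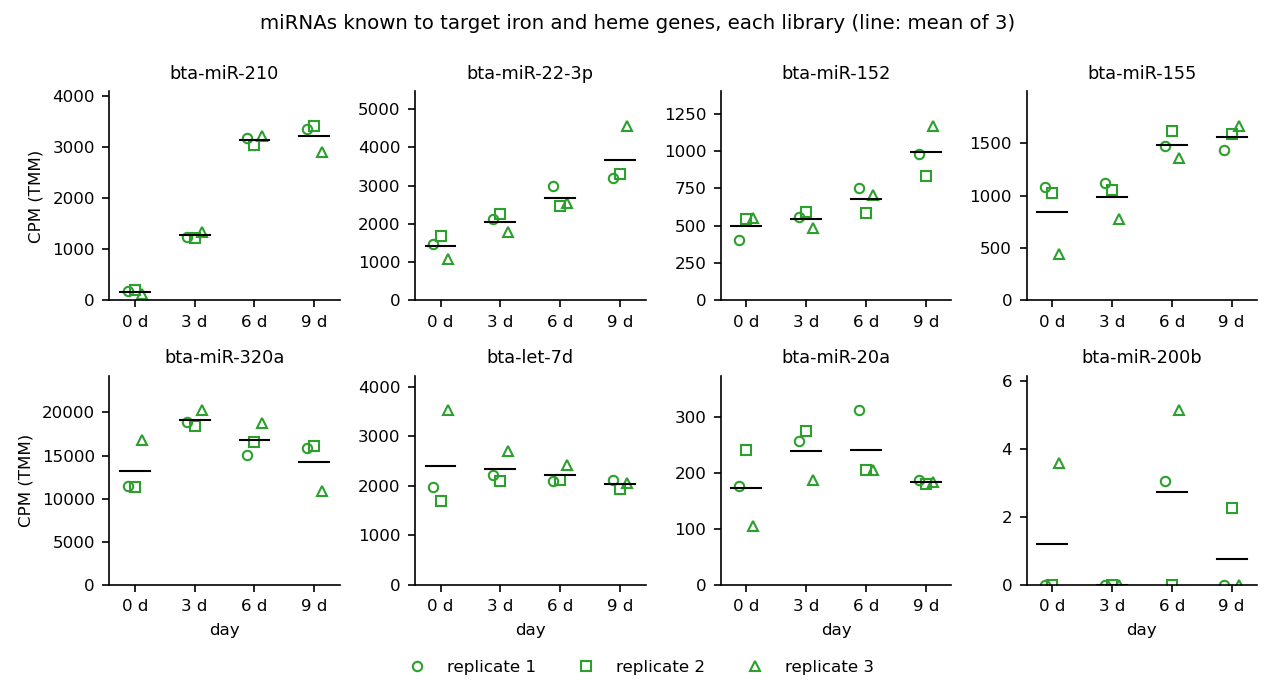
CPM after TMM scaling (linear axes from 0) for 8 of the miRNAs, by day. Symbols are replicates and lines are means of 3 libraries; bta-miR-210 at 0 d lies below all later libraries.

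bta-miR-210, known to be raised by hypoxia and to act on TFRC and ISCU, had 190, 195 and 117 CPM at 0 d, 1245, 1226 and 1337 at 3 d, 3163, 3037 and 3210 at 6 d, with 3340, 3401 and 2897 at 9 d. No library of 0 d or 3 d overlapped with another day, and 6 d and 9 d overlapped. Against 0 d it rose by 2.92 at 3 d (edgeR adjusted p = 7.24e-07), by 4.23 at 6 d (1.87e-08) and by 4.26 at 9 d (1.72e-08), higher in 3 of 3 libraries each time. From 3 d to 6 d it rose by 1.31 (adjusted p = 0.00112). Among all tested miRNAs its rank by mean went from 202 to 85, 49 and 50. TFRC was lowest at 6 d and overlapped at 9 d with its 0 d level, while bta-miR-210 was high on both days, and a link between them was not tested.

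bta-miR-22-3p, another miRNA tied to TFRC, had 1485, 1677 and 1075 CPM at 0 d, 2115, 2247 and 1798 at 3 d, 2981, 2476 and 2547 at 6 d, with 3188, 3292 and 4549 at 9 d. Its 9 d libraries were above all others, and it rose by 1.38 at 9 d (edgeR adjusted p = 0.000274). At 6 d its log2 fold change of 0.92 was not called, and without 0 d replicate 2 it was, at 1.12, while without 0 d replicate 3 it was 0.75. bta-miR-155, tied to BACH1, had 0.80 at 6 d and 0.88 at 9 d. It was called without 0 d replicate 1 (1.02 and 1.09) and without 0 d replicate 2 (1.02 and 1.07). Without 0 d replicate 3, the lowest of that day at 441 CPM beside 1084 and 1022, it had 0.49 and 0.57.

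bta-miR-152 at 9 d had a log2 fold change of 0.99 without a call. It was called without 0 d replicate 2 (1.08), 0 d replicate 3 (1.06), 6 d replicate 3 (1.04) or 9 d replicate 2 (1.10), and its lowest value over the leave-outs was 0.86. bta-let-7d, tied to SLC11A2, had means of 2390, 2341, 2211 and 2033 CPM, with log2 fold changes of -0.03, -0.11 and -0.23. Without 0 d replicate 3, at 3521 CPM beside 1968 and 1680, all of these turned positive, to 0.36, 0.28 and 0.16. bta-miR-20a, tied to SLC40A1, had 174, 240, 242 and 184 CPM and was not called.

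In all, 1 of 11 was called at 3 d, 1 at 6 d and 2 at 9 d against 0 d, each of them higher. For 6 d against 3 d it was 1, and for 9 d against 6 d edgeR called 0, with 2 at an unadjusted p under 0.05 and 0 called by DESeq2. Over all 1090 tested miRNAs the share called was 6.42% at 3 d, 11.2% at 6 d and 19% at 9 d against 0 d. It was 3.76% for 6 d against 3 d and 0.367% for 9 d against 6 d. Without 0 d replicate 2 the count was 3 at 6 d and 4 at 9 d. Without 0 d replicate 1 it was 2 at 6 d and 3 at 9 d. It was also 3 at 9 d without 0 d replicate 3, 6 d replicate 3 or 9 d replicate 2.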

How the data were processed

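The authors aligned strand-specific RNA reads and deposited FPKM for mRNAs and lncRNAs; the lncRNA table is not used here, since it was not joined to positions. They deposited back-spliced read counts and a scaled signal (SRPBM) for circular RNAs called by CIRCExplorer2 and CIRI, and estimated counts (raw values, some fractional) with normalized signal for miRNAs from ACGT101-miR. The submitters' processing notes name Bowtie 0.12.2, HISAT2 2.0, StringTie 1.3.0 and the genome mm8, and the paper's methods ARS-UCD1.2. The labels describe poly(A) selection and the paper's methods ribosomal RNA depletion.

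FPKM were tested as log2(FPKM + 0.1) in limma 3.58.1 (trend), for mRNAs with a mean of at least 0.1, in one fit of 12 libraries. Read counts of circular RNAs (at least 5) and rounded miRNA counts (at least 10, rows of one name and sequence summed) were tested in edgeR 4.0.16 (quasi-likelihood, TMM), with DESeq2 1.42.0 as the alternative, in R 4.3.3. A call needed a log2 fold change beyond 1 and a Benjamini-Hochberg adjusted p under 0.05 over all features tested. Counts at an unadjusted p under 0.05 need no such fold change, and shares of all features at that p are not given here. Fits were tested on simulated data.

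The genes and lists were chosen with earlier results of these data known. Named were the 9 genes, their tested circular RNAs, the listed miRNAs, the 3 nearest patterns per gene, all 3 iron regulatory genes and, per list, the most abundant gene and up to 4 called genes with the largest change against 0 d. CYBRD1, TFR2, FLVCR2, GLRX5, SLC25A28, ANKRD37, PDK1, HFE, NDRG1, SLC2A1, ADM, SGK1, CPOX, UROS, GCLC, GCLM, MYOD1, ADIPOQ, LEP, circRNA9537 and the called macrophage markers were chosen after their values were seen, as was the split into 7 and 3 lists. Some listed genes enter the counts and are not reported here by name. No sequence motif was searched.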

Additional observations from a re-analysis of the deposited data

How the results depend on the processing

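Median-ratio rescaling of the libraries turned the STEAP3 log2 difference at 9 d against 0 d from -0.17 to 0.029. The rescaling divided by 1.08 to 1.12 at 0 d and by lower factors later, 0.93 to 0.97 at 9 d, so all differences from 0 d moved up. It also moved, against 0 d, STEAP3 to -1.03 at 3 d and 0.091 at 6 d, FTH1 to 0.42, 0.27 and 1.55, SLC40A1 to -0.28, -0.39 and -0.21, FTL to -0.31 at 6 d and 0.42 at 9 d, SLC11A2 to -0.23 and -0.088 on those days, and TFRC to 0.32 and HMOX1 to 0.22 at 9 d. For 6 d against 3 d it gave FTH1 -0.15 and SLC11A2 0.30, and for 9 d against 6 d FTH1 1.28. With 1 added to the FPKM in place of 0.1, TF differed from 0 d by 4.70, 4.14 and 3.84, CD163 by 6.26, 3.76 and 1.35 and STEAP3 at 3 d by -0.997, and for 6 d against 3 d HMOX1 had -1.34 and STEAP3 0.93. With 0.01 added, TF had 10.03, 9.44 and 9.12. Over leave-outs of 1 library the counts of called pathway genes were 29 to 33, 19 to 22 and 23 to 26 at 3 d, 6 d and 9 d against 0 d, 15 to 18 for 6 d against 3 d and 6 to 7 for 9 d against 6 d. Those of called miRNAs were 1 to 3 at 6 d and 2 to 4 at 9 d against 0 d. Other filters, tools and added values kept these counts within 1.5 times, but with 1 added the calls over all mRNAs against 0 d went from 3585, 1749 and 1675 to 2184, 967 and 888, those for 6 d against 3 d from 2939 to 1688 and for 9 d against 6 d from 683 to 368, and those of the 7 iron and heme lists against 0 d from 18, 8 and 10 to 11, 5 and 7. Single lists also moved past that, with iron uptake at 3 d going from 3 to 1. The added alternatives, miRNA rows as deposited and circular RNAs summed per host gene, were chosen after seeing the data and changed no count of calls.

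Whether replicate numbers pair the libraries cannot be told from 3 libraries per day. Over 18 pairs with the same number, deviations from day means correlated from -0.10 to 0.11. The mean r was 0.027 for these pairs and -0.014 for pairs with other numbers, and 6 of 12 libraries were closest to their own number. With the number as a replicate block the pathway counts were 30, 20, 25, 16 and 6. Of the 20 at 6 d against 0 d 19 were also called without the block, and 15 were higher in place of 14. Under the block FKBP5 (-2.11) and P4HA1 (1.10) for 6 d against 3 d lost their calls, as FKBP5 also did under the rescaling and in 8 leave-outs and P4HA1 in 9, and counts of circular RNAs and miRNAs were as without it.

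FPKM tables carry no counts, so the depth behind each mRNA value is unknown, and an FPKM of 0 gives no upper limit. Circular RNAs of these genes had few reads, and no detection limit was computed for them. lncRNAs near the 9 genes and sequence motifs were planned and not run, since the files used give no positions for lncRNAs and the reference used holds no sequence.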
